A study of Mus musculus with 16 samples.

Results

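The Wnt ligands, their receptors, their secreted antagonists and the feedback targets of the pathway were examined in thyroid glands of *Glis3*-Pax8Cre and WT mice. Members were the rows of the gene count table whose symbol is *Wnt*, *Fzd*, *Dkk* or *Sfrp* followed by a number and at most a letter a or b, together with *Axin2*, *Lef1*, *Tcf7*, *Lgr5*, *Rnf43*, *Znrf3*, *Notum*, *Wif1* and *Nkd1*. This gave 46 of 25611 rows, made up of 19 ligands, 10 Frizzled receptors, 9 secreted antagonists, the R-spondin receptor *Lgr5*, 2 transcription factors (*Tcf7* and *Lef1*) and 5 feedback targets. RNA-Seq had been performed on thyroids of 16 female mice aged 4 weeks, 4 in each of 4 groups. WT(ND) and *Glis3*-Pax8Cre(ND) mice received the normal diet NIH-31, and WT(LID) and *Glis3*-Pax8Cre(LID) mice received the low-iodine diet TD.95125 for 6 days. *Glis3*-Pax8Cre mice carry a floxed *Glis3* (tm2Amj) and a Cre inserted in the *Pax8* locus (tm1.1(cre)Mbu), which deletes exon 5 of *Glis3* in cells that express *Pax8*, in the thyroid mainly the follicular cells. WT mice are given only as WT, without a Cre control, so the effects of the Cre allele and of the *Glis3* deletion cannot be told apart. The labels do not tell whether mice of a group were littermates, and p-values refer to the spread among these mice.

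Between 13892352 and 461077969 read pairs per mouse fell on genes, and a count of 0 in a mouse allows a level of up to 0.00651 to 0.216 CPM (read counts scaled to a common library size), by counting error alone. Levels are CPM scaled by TMM, edgeR's normalization, with ± for the SD (n = 4), and values of single mice stand in the order of replicates 1 to 4. The counts of *Glis3* cover the whole gene, so they do not check the loss of exon 5. Its level was 45.2 to 85.8 CPM in the WT(ND) mice, 85.8 to 105 CPM in the *Glis3*-Pax8Cre(ND) mice, 125 to 174 CPM in the WT(LID) mice and 119.5 to 204 CPM in the *Glis3*-Pax8Cre(LID) mice. *Pax8* was at 643 to 989 CPM in the 8 *Glis3*-Pax8Cre mice and at 280.2 to 397 CPM in 7 of the 8 WT mice. The library labelled WT(ND) replicate 3 stood apart with 996 CPM of *Pax8*, above every *Glis3*-Pax8Cre mouse, so results that rest on WT(ND) were also computed without it. Follicular cell markers were high in every library, led by *Tg* with 7.87% to 29.3% of counts. *Tg* was called lower in *Glis3*-Pax8Cre than in WT (-1.28 on the LID and -0.81 on the ND) and the receptor gene *Tshr* higher (adjusted p = 0.00599 on the LID and 0.00400 on the ND), and the part of the follicular cells in the differences of members between genotypes was not tested. In 1 mouse of each group the summed level of 7 thymocyte markers exceeded 100 CPM, which bears on *Tcf7* and *Lef1* and is described there.

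Wnt proteins are secreted lipid-modified signals that bind Frizzled receptors together with an LRP co-receptor. In the canonical branch this stabilises β-catenin, which enters the nucleus and activates genes together with TCF and LEF factors, while other ligands act through planar cell polarity and calcium signalling without β-catenin. SFRP proteins and WIF1 bind the ligands, DKK proteins act on the co-receptor, and *Axin2*, *Nkd1*, *Notum*, *Rnf43* and *Znrf3* encode feedback inhibitors that canonical signalling commonly induces. In the thyroid, WNT signalling is known from gland development and from thyroid cancer.

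Promoter sequences are shown for the 3 ligands and the Dickkopf gene whose response to the diet differed between genotypes. They are the 250 bases before a transcription start in RefSeq for the mouse build GRCm38.p6, the assembly also called mm10, read 5′ to 3′ on the strand of the gene, and RefSeq starts were found for 31 of the 46 members. Capitals mark matches to the letters searched on both strands, CTTTGAT and CTTTGAA for TCF and LEF factors (which share their first letters), TGGGGGGT as the core of a GLIS site, and TGACGTCA for CREB. The Wnt5b window lies at chr6:119449387-119449636 on the minus strand, before 1 of 3 RefSeq starts of the gene, Wnt4 at chr4:137277385-137277634 on the plus strand, Wnt9b at chr11:103749822-103750071 on the minus strand and Dkk2 at chr3:132085042-132085291 on the plus strand.
Wnt5b: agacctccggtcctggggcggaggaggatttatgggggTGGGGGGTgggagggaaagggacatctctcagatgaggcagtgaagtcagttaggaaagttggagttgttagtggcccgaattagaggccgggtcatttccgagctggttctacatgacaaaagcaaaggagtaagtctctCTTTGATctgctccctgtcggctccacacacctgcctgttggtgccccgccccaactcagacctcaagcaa
Wnt4: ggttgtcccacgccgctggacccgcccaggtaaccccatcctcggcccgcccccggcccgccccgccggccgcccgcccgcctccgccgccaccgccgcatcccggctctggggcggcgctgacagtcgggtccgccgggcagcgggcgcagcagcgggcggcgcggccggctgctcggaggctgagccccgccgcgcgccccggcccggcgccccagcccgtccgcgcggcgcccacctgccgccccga
Wnt9b: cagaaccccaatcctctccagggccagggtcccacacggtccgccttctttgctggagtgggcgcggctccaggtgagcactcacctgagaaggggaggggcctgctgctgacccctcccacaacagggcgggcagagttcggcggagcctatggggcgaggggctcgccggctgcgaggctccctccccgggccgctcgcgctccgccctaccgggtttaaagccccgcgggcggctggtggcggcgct
Dkk2: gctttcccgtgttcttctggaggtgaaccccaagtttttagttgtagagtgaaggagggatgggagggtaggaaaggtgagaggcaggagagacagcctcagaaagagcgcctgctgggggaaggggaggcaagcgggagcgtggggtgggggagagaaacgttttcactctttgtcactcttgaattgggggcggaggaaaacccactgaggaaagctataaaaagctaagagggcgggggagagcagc
The Wnt5b window holds 1 GLIS core, 212 bases from the start, and 1 CTTTGAT, 71 bases from it. The windows of *Wnt4*, *Wnt9b* and *Dkk2* hold none of these motifs, and neither do those of the other 2 *Wnt5b* starts. Over 32851 RefSeq promoters of the same length, 1.36% hold TGGGGGGT, 3.21% hold CTTTGAT, 4.46% hold CTTTGAA and 1.55% hold TGACGTCA. Of 39 member promoters, 1 holds TGGGGGGT (*Wnt5b*), 2 hold CTTTGAT (*Wnt5b* and *Wnt11*), 1 holds CTTTGAA (*Dkk1*) and 0 hold TGACGTCA. A match is a match of letters and was not tested as a binding site.

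Enough reads for a test were found for 37 members among 16630 genes of the table. The 9 members left out were *Wnt1*, *Wnt3a*, *Wnt7a*, *Wnt8a*, *Wnt8b*, *Wnt10a*, *Wnt16*, *Dkk1* and *Dkk4*, each with a mean of at most 0.249 CPM and at most 163 counts in a mouse. All 16 mice entered 1 fit with edgeR's quasi-likelihood test, and a member was called at an adjusted p under 0.05 (Benjamini-Hochberg over all 16630 genes), which holds for every adjusted p below. Log2 fold changes are given with their standard error (SE). In whole glands, fewer cells of a type and less RNA per cell cannot be told apart. On the LID, 5 of the 37 were higher in *Glis3*-Pax8Cre than in WT, against 14.9% of all genes, and 12 were lower, against 15.4% of all genes. The 5 were *Wnt5a*, *Wnt5b*, *Fzd3*, *Fzd5* and *Fzd9*, and the 12 were *Wnt2*, *Wnt2b*, *Wnt4*, *Wnt9a*, *Wnt9b*, *Wnt10b*, *Fzd4*, *Dkk2*, *Dkk3*, *Sfrp5*, *Lgr5* and *Notum*. The members had a median log2 fold change of -0.31 there, and all genes one of 0.01. On the ND, 2 were higher (*Wnt5b* and *Nkd1*; all genes 10.3%) and 5 were lower (*Wnt4*, *Wnt9a*, *Dkk2*, *Sfrp5* and *Rnf43*; all genes 9.25%), with a median of -0.18 against 0.02. Counting either direction, 45.9% of the members were called on the LID, against 30.2% of all genes, and 18.9% on the ND, near the 19.6% of all genes.

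In WT mice the LID raised 10 members (*Wnt2*, *Wnt2b*, *Wnt4*, *Wnt9b*, *Fzd1*, *Fzd4*, *Dkk2*, *Sfrp4*, *Wif1* and *Nkd1*), against 20.9% of all genes, and lowered 5 (*Wnt5b*, *Wnt7b*, *Fzd8*, *Axin2* and *Rnf43*), against 20.8%. In *Glis3*-Pax8Cre mice it raised 7 (*Wnt4*, *Wnt5a*, *Wnt9b*, *Fzd1*, *Fzd5*, *Dkk2* and *Wif1*), against 13.1%, and lowered 4 (*Wnt7b*, *Sfrp1*, *Axin2* and *Notum*), against 12.3%. Counting either direction, 40.5% of the members responded in WT (all genes 41.7%) and 29.7% in *Glis3*-Pax8Cre (all genes 25.4%). The member medians were 0.24 in WT and -0.00 in *Glis3*-Pax8Cre, where all genes had -0.03 in both. *Wnt3*, *Wnt6*, *Wnt11*, *Fzd2*, *Fzd6*, *Fzd7*, *Fzd10*, *Sfrp2*, *Lef1*, *Tcf7* and *Znrf3* were called in none of the 4 comparisons and not in their interaction. The share of all genes called in none is not given here, so the number of these members is not read as a result. By the thresholds of the study, a 2-fold change and an adjusted p below 0.01, 1 member was higher and 7 were lower between genotypes on the LID (all genes 2.92% and 5.02%), and on the ND 0 and 0 (2.29% and 1.86%). By the same thresholds the diet raised 8 and lowered 2 in WT (7.68% and 4.8%) and raised 2 and lowered 1 in *Glis3*-Pax8Cre (2.93% and 2.07%). Under scaling by library size alone, all genes had median log2 fold changes of 0.16 and 0.14 in the genotype comparisons on the LID and the ND. In the diet comparisons of WT and *Glis3*-Pax8Cre these medians were -0.18 and -0.17. The ND split of the members was then 4 higher and 3 lower, where 74.4% of all genes called were higher. The WT diet split was 9 and 7 (31.9% of all genes called higher) and the *Glis3*-Pax8Cre diet split 6 and 6 (27.7%). Without WT(ND) replicate 3, the ND counts were again 2 and 5, and the WT diet counts were 9 and 5, with *Wnt2b* as the call lost.

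**Figure D1:**
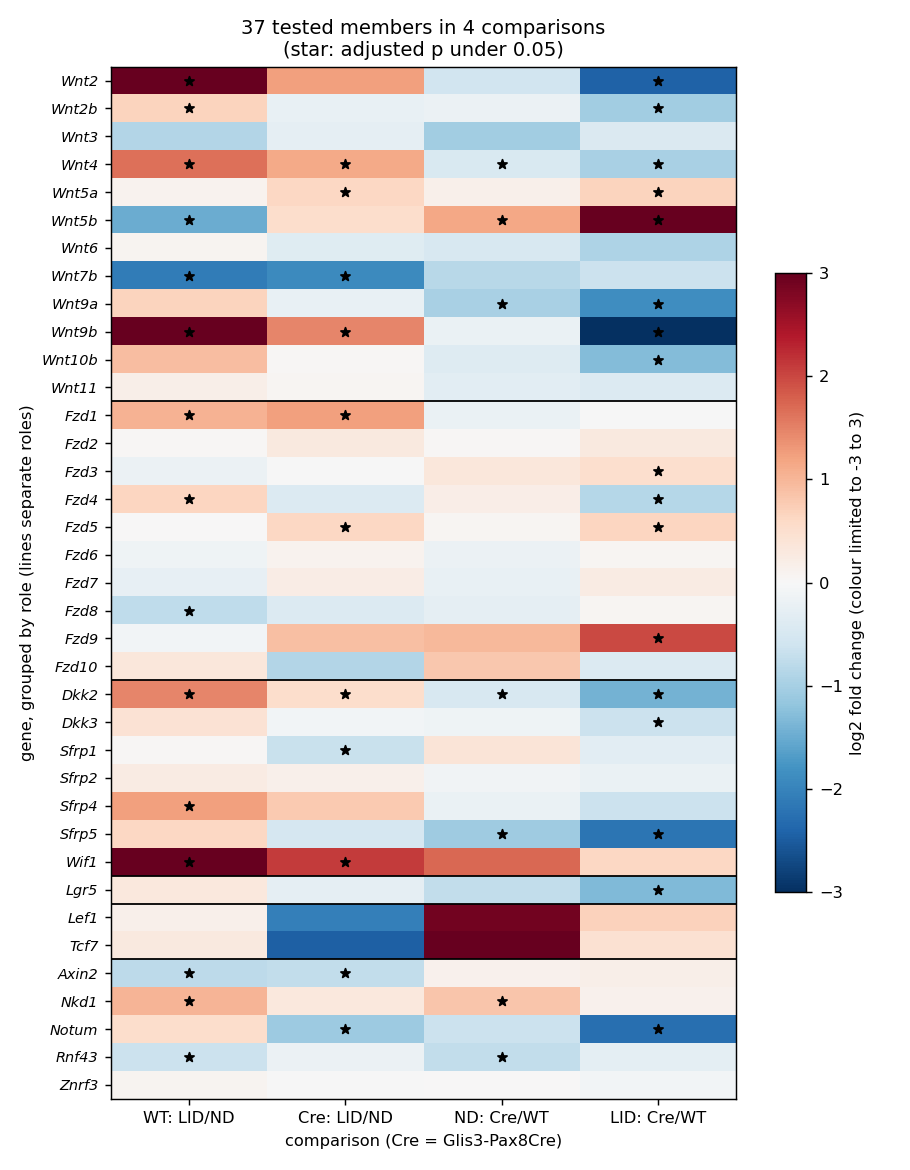
Log2 fold changes of the 37 tested members (rows, grouped by role) in 4 comparisons (columns), with colour limited to -3 to 3 and a star where the adjusted p is under 0.05. The LID column of *Glis3*-Pax8Cre against WT holds 17 stars, 6 of them on lower ligands, and *Wnt5b* is red there and blue in the WT diet column. Fitted values of *Wif1* and *Fzd9*, which had 0 counts in 1 mouse each, depend on the prior count.

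*Wnt4*, a ligand that acts by canonical and other branches depending on the tissue, made up most of the ligand mRNA. Per kb of exon, it had the highest mean of all members over the 16 mice, 43.8 CPM per kb, followed by *Fzd6* (33.6), *Fzd1* (32.1), *Nkd1* (31.6) and *Fzd7* (30.8). Of the CPM per kb summed over the 19 ligands, *Wnt4* took 72.9% ± 3.11 in the WT(ND) mice, 58.9% ± 4.17 in the *Glis3*-Pax8Cre(ND) mice, 89.2% ± 0.451 in the WT(LID) mice and 69.5% ± 2.68 in the *Glis3*-Pax8Cre(LID) mice (SD, n = 4). *Wnt4* (chromosome 4, mm10 137277635 to 137299501, plus strand) measured 125, 116, 105 and 108 CPM in the WT(ND) mice, 92.8, 86.6, 77.0 and 73.3 in the *Glis3*-Pax8Cre(ND) mice, 362, 329, 339 and 399.9 in the WT(LID) mice and 166, 199, 173 and 187 in the *Glis3*-Pax8Cre(LID) mice. No 2 of the 4 groups overlapped, and the order was *Glis3*-Pax8Cre(ND), WT(ND), *Glis3*-Pax8Cre(LID) and WT(LID). The LID raised it by a log2 fold change of 1.65 (SE 0.10, adjusted p = 1.27e-08) in WT and by 1.14 (SE 0.10, adjusted p = 2.00e-06) in *Glis3*-Pax8Cre mice. *Glis3*-Pax8Cre was lower than WT by -0.98 (SE 0.10, adjusted p = 2.54e-06) on the LID and by -0.46 (SE 0.09, adjusted p = 0.00346) on the ND. The ligand sum followed *Wnt4*, with 37.1 ± 1.36 CPM per kb in the WT(ND) mice, 33.5 ± 4.29 in the *Glis3*-Pax8Cre(ND) mice, 95.5 ± 8.80 in the WT(LID) mice and 62.2 ± 2.75 in the *Glis3*-Pax8Cre(LID) mice.

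*Wnt5b*, a ligand mainly of the branch without β-catenin, went the other way from *Wnt4* in each of these comparisons except the diet comparison in *Glis3*-Pax8Cre. *Wnt5b* (chromosome 6, mm10 119432531 to 119544347, minus strand) measured 6.54, 7.13, 14.6 and 8.68 CPM in the WT(ND) mice, 21.9, 23.4, 25.7 and 11.1 in the *Glis3*-Pax8Cre(ND) mice, 2.03, 3.14, 3.61 and 4.35 in the WT(LID) mice and 30.6, 30.4, 28.7 and 29.2 in the *Glis3*-Pax8Cre(LID) mice. The LID groups lay far apart, while on the ND WT replicate 3 lay above *Glis3*-Pax8Cre replicate 4. On the LID *Glis3*-Pax8Cre was 9.05-fold higher than WT, a log2 fold change of 3.18 (SE 0.31, adjusted p = 3.17e-06). On the ND it was 1.15 higher (SE 0.29, adjusted p = 0.0118), and without WT(ND) replicate 3 it was 1.47 higher (adjusted p = 0.00126), while in a fit of only the 8 ND mice the call was lost (adjusted p = 0.0562). The LID lowered *Wnt5b* by -1.49 (SE 0.29, adjusted p = 0.000849) in WT, by -1.18 (adjusted p = 0.00246) without WT(ND) replicate 3, and in *Glis3*-Pax8Cre mice the difference was 0.53 (SE 0.28, adjusted p = 0.177). Its share of ligand mRNA per kb was 9.47% ± 4.06 in the WT(ND) mice, 22.7% ± 5.56 in the *Glis3*-Pax8Cre(ND) mice, 1.30% ± 0.347 in the WT(LID) mice and 18.0% ± 1.01 in the *Glis3*-Pax8Cre(LID) mice. In sum, cartilage markers were higher in *Glis3*-Pax8Cre on both diets, as *Wnt5b* was, but in WT they did not fall with it on the LID. The sum of 5 of them (*Col2a1*, *Acan*, *Col9a1*, *Matn1* and *Hapln1*) was 7.91 to 25.7 CPM in the WT(ND) mice, 36.6 to 51.0 CPM in the *Glis3*-Pax8Cre(ND) mice, 13.0 to 17.6 CPM in the WT(LID) mice and 45.5 to 66.0 CPM in the *Glis3*-Pax8Cre(LID) mice, and WT(ND) replicate 3 was the highest WT mouse in this sum and in *Wnt5b*. Of the 3 with enough reads for a test, *Hapln1* was called higher in *Glis3*-Pax8Cre on the LID (3.20) and *Col9a1* (1.33) and *Hapln1* (2.21) on the ND. For the diet in WT, *Acan* (2.25), *Hapln1* (0.59) and *Col9a1* (-0.17) were not called. *Col2a1*, the collagen that defines cartilage, was at 0.0141 to 0.165 CPM in every mouse except *Glis3*-Pax8Cre(LID) replicate 1 (4.54 CPM), and *Matn1* was at 0 in some mice. Which cells carried these markers, and their part in the values of *Wnt5b*, was not tested. *Wnt5b* overlaps *Fbxl14*, which lies on the other strand, and counting had not used strand. Among the other members, *Wnt7b* overlaps *AU022754* and *Lgr5* overlaps *A930009A15Rik* on the other strand, and *Rnf43* overlaps *1110028F11Rik* on its own strand.

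**Figure D2:**
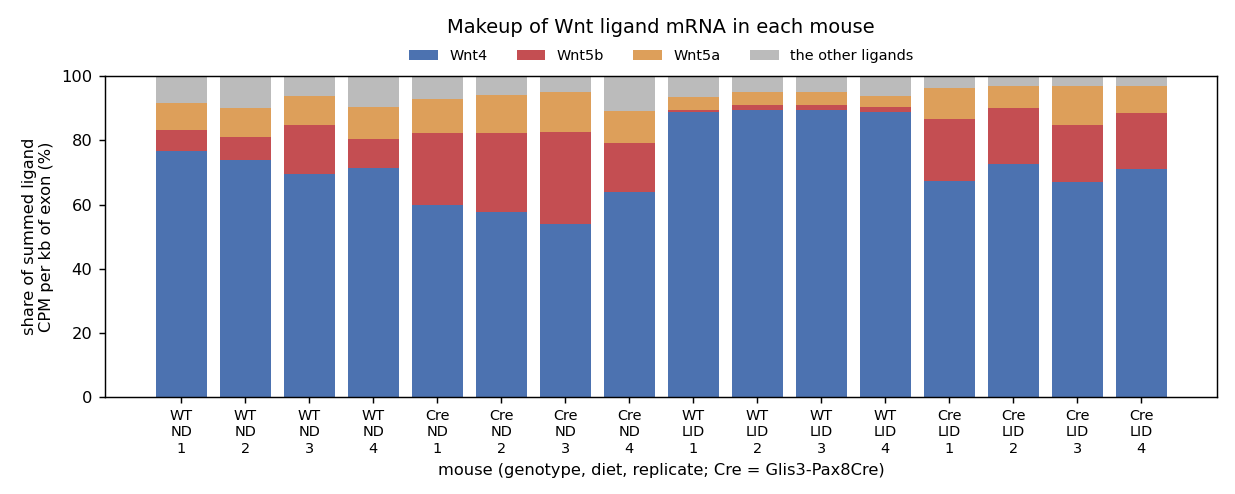
Share of the summed CPM per kb of the 19 ligands (y axis, percent) taken by *Wnt4*, *Wnt5b*, *Wnt5a* and the other 16 ligands in each of the 16 mice (x axis). *Wnt4* takes 88.8% to 89.6% in the WT(LID) mice and 67.1% to 72.5% in the *Glis3*-Pax8Cre(LID) mice, where *Wnt5b* takes 17.5% to 19.5%.

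*Wnt5a*, the closest relative of *Wnt5b* and like it mainly a ligand of the branch without β-catenin, measured 23.4, 24.3, 22.9 and 25.2 CPM in the WT(ND) mice, 27.8, 29.9, 29.9 and 18.8 in the *Glis3*-Pax8Cre(ND) mice, 26.3, 25.0, 25.3 and 26.6 in the WT(LID) mice and 39.9, 32.8, 53.0 and 38.0 in the *Glis3*-Pax8Cre(LID) mice. Every *Glis3*-Pax8Cre(LID) mouse lay above all the others. It exceeded WT(LID) in *Glis3*-Pax8Cre(LID) by 0.67 (SE 0.14, adjusted p = 0.00244) and exceeded *Glis3*-Pax8Cre(ND) by 0.62 (SE 0.14, adjusted p = 0.00586), a call lost in a fit of only the 8 mice compared (adjusted p = 0.0553). The 2 WT groups differed by 0.11 (adjusted p = 0.586).

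*Wnt9b*, a canonical ligand known from kidney development, was low on the ND and rose on the LID chiefly in WT. It measured 0.294, 0.249, 0.184 and 0.222 CPM in the WT(ND) mice, 0.188, 0.133, 0.270 and 0.250 in the *Glis3*-Pax8Cre(ND) mice, 8.39, 2.90, 2.28 and 4.80 in the WT(LID) mice and 0.687, 0.586, 0.458 and 0.580 in the *Glis3*-Pax8Cre(LID) mice. The ND groups overlapped, and each LID group lay above them without overlap. The LID raised it 19.3-fold in WT (log2 fold change 4.27, SE 0.39, adjusted p = 6.96e-07) and 2.78-fold in *Glis3*-Pax8Cre (1.47, SE 0.38, adjusted p = 0.0113). *Glis3*-Pax8Cre(LID) was 7.95-fold lower than WT(LID) (log2 fold change -2.99, SE 0.36, adjusted p = 1.81e-05).

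*Wnt2*, another canonical ligand, had a similar pattern at a lower level, with 0.133 to 0.396 CPM in the WT(ND) mice, 0.0541 to 0.439 CPM in the *Glis3*-Pax8Cre(ND) mice, 1.36 to 3.03 CPM in the WT(LID) mice and 0.211 to 0.521 CPM in the *Glis3*-Pax8Cre(LID) mice. It rose on the LID in WT by 3.08 (SE 0.48, adjusted p = 0.000120) and differed between the LID groups by -2.43, lower in *Glis3*-Pax8Cre (SE 0.46, adjusted p = 0.000931). *Wnt2b*, its paralogue, measured 1.28, 1.23, 0.791 and 1.53 CPM in the WT(ND) mice, 1.38, 0.944, 0.973 and 1.09 in the *Glis3*-Pax8Cre(ND) mice, 2.32, 1.76, 1.46 and 2.13 in the WT(LID) mice and 1.09, 0.911, 0.965 and 0.738 in the *Glis3*-Pax8Cre(LID) mice. The LID groups did not overlap and differed by -1.05 (SE 0.22, adjusted p = 0.00204), and the rise in WT, with overlap of the diets, was 0.66 (SE 0.22, adjusted p = 0.0233), a call lost without WT(ND) replicate 3 (adjusted p = 0.0630), without WT(LID) replicate 1 (0.0706) or 4 (0.0622) and with library size alone (0.0764).

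*Wnt9a*, a ligand known from joint formation, measured 3.78, 3.78, 1.54 and 3.25 CPM in the WT(ND) mice, 2.70, 1.56, 1.03 and 1.18 in the *Glis3*-Pax8Cre(ND) mice, 4.20, 4.95, 4.58 and 6.00 in the WT(LID) mice and 1.43, 1.43, 1.39 and 1.18 in the *Glis3*-Pax8Cre(LID) mice. It was lower in *Glis3*-Pax8Cre than in WT on the LID, without overlap, by -1.86 (SE 0.30, adjusted p = 0.000230) and on the ND, with overlap through WT replicate 3, by -0.97 (SE 0.30, adjusted p = 0.0321). Without WT(ND) replicate 3 the ND difference was -1.18 (adjusted p = 0.00414), but over 26 alternatives the adjusted p went from 0.00414 to 0.173, and the call was kept in 16 of them. *Wnt10b*, a canonical ligand known to restrain fat cell formation, was at 0.521 to 1.59 CPM in the WT(LID) mice and at 0.342 to 0.544 CPM in the *Glis3*-Pax8Cre(LID) mice, groups that overlapped, with a difference of -1.29 (SE 0.38, adjusted p = 0.0186). That call was lost without any 1 of WT(LID) replicates 1 and 4 and *Glis3*-Pax8Cre(LID) replicates 2 and 4 (adjusted p from 0.0533 to 0.0679).

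*Wnt7b*, a canonical ligand of lung and other epithelia, fell on the LID in both genotypes. It measured 2.35, 2.45, 3.15 and 3.31 CPM in the WT(ND) mice, 1.57, 1.48, 0.991 and 2.30 in the *Glis3*-Pax8Cre(ND) mice, 0.443, 0.574, 0.899 and 0.735 in the WT(LID) mice and 0.544, 0.569, 0.247 and 0.316 in the *Glis3*-Pax8Cre(LID) mice. The diets did not overlap in either genotype, and the log2 fold changes were -2.09 (SE 0.31, adjusted p = 8.11e-05) in WT and -1.92 (SE 0.32, adjusted p = 0.000561) in *Glis3*-Pax8Cre. In the genotype comparisons *Wnt7b* was not called (-0.83 on the ND, adjusted p = 0.0634, and -0.65 on the LID, adjusted p = 0.133). On the ND all *Glis3*-Pax8Cre mice nevertheless lay below all WT mice. Some alternatives called this difference, among them DESeq2 (-0.82, adjusted p = 0.0283) and the fit without *Glis3*-Pax8Cre(ND) replicate 4 (-1.07, adjusted p = 0.02375). RLE scaling and library size alone did not. *Wnt3*, *Wnt6* and *Wnt11* were also tested and had at most 2.83 CPM in a mouse.

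Summed markers of parathyroid and of C cells, which lie in or beside the gland, were also lower on the LID. The sum of 3 parathyroid markers (*Pth*, *Gcm2* and *Casr*) was 3476 to 6004 CPM in the WT(ND) mice and 858 to 1676 CPM in the WT(LID) mice, and 3288 to 5179 CPM and 225 to 2099 CPM in the *Glis3*-Pax8Cre mice. That of 3 C-cell markers (*Calca*, *Calcb* and *Chga*) went from 7293 to 9591 CPM on the ND to 2338 to 3676 CPM on the LID in WT and from 3358 to 5811 CPM to 1255 to 3205 CPM in *Glis3*-Pax8Cre. The diets did not overlap in either sum in either genotype. All 3 parathyroid markers were called lower on the LID in both genotypes. Of the C-cell markers, *Calca* (-1.14) and *Chga* (-1.89) were called lower in WT and *Chga* (-1.63) in *Glis3*-Pax8Cre. *Calca* was not called in *Glis3*-Pax8Cre (-0.41, adjusted p = 0.197), with 1024 to 2211 CPM on the ND and 1024 to 1802 CPM on the LID. Of the 3 C-cell markers only *Chga* separated the diets there, at 2202 to 3600 CPM and 140.9 to 1622 CPM. *Calcb* was at 0 in some mice. The sum of 4 adipocyte markers was lower in WT alone without overlap, at 335 to 516 CPM on the ND and 158 to 229 CPM on the LID, with 4 of 4 called, against 159 to 358 CPM and 190 to 430.3 CPM in *Glis3*-Pax8Cre. The part of these cells in the lower values on the LID of *Wnt7b*, *Wnt5b*, *Fzd8*, *Axin2* and *Rnf43* in WT and of *Wnt7b*, *Sfrp1*, *Axin2* and *Notum* in *Glis3*-Pax8Cre was not tested.

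There were 4 pairs of ligand genes less than 100 kb apart. *Wnt9b* and *Wnt3* are 24.4 kb apart on chromosome 11, and the rise of *Wnt9b* in WT(LID) stood beside a *Wnt3* level of 0.115 to 0.342 CPM there and 0.154 to 0.469 CPM in the WT(ND) mice, a difference of -0.87 that was not called (adjusted p = 0.111). *Wnt3a* and *Wnt9a* are 16.2 kb apart on chromosome 11, *Wnt10b* and *Wnt1* 11.7 kb apart on chromosome 15, and *Wnt6* and *Wnt10a* 6.70 kb apart on chromosome 1. *Wnt1*, *Wnt3a* and *Wnt10a* had too few reads for a test.

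Most endothelial, pericyte and smooth muscle markers moved with the ligands that were lower in *Glis3*-Pax8Cre(LID), and of the fibroblast markers *Col1a1* did. The summed level of 5 endothelial markers (*Pecam1*, *Cdh5*, *Kdr*, *Tek* and *Emcn*) was 459 to 579.5 CPM in the WT(ND) mice, 597 to 832 CPM in the *Glis3*-Pax8Cre(ND) mice, 1225 to 1390.0 CPM in the WT(LID) mice and 552 to 712 CPM in the *Glis3*-Pax8Cre(LID) mice. In *Glis3*-Pax8Cre(LID) against WT(LID), 4 of the 5 were lower, with a median of -1.38. The sum of 5 pericyte and smooth muscle markers was 825 to 1253 CPM in the WT(LID) mice and 424 to 639 CPM in the *Glis3*-Pax8Cre(LID) mice, with 4 of 5 lower. That of 5 fibroblast markers was 655 to 763 CPM and 265 to 457 CPM, with 1 of 5 lower. This was *Col1a1* (-1.48), at 426 to 525 CPM and 101 to 221 CPM, while *Pdgfra*, *Dcn*, *Lum* and *Dpt* were not called. In WT the LID also raised all 5 endothelial markers and 4 of the 5 pericyte and smooth muscle markers, whose sum was 352 to 448.5 CPM in the WT(ND) mice. Of the fibroblast markers it raised *Col1a1* (1.82) and lowered *Pdgfra* (-0.86) and *Dcn* (-0.78). On the ND, *Wnt4*, *Wnt9a* and *Dkk2* were lower in *Glis3*-Pax8Cre. There 2 endothelial markers and 1 pericyte and smooth muscle marker were called higher and 0 lower, and 2 fibroblast markers were called lower and 0 higher. All 5 macrophage markers (*Adgre1*, *Csf1r*, *Cd68*, *Mrc1* and *C1qa*) were called higher there, with a median of 0.70. Their sum was 121 to 180 CPM in the WT(ND) mice and 203 to 246 CPM in the *Glis3*-Pax8Cre(ND) mice. None of these endothelial, pericyte and smooth muscle, fibroblast and macrophage markers was at 0 in any mouse. The part of these cells in the differences of *Wnt2*, *Wnt2b*, *Wnt4*, *Wnt9a*, *Wnt9b*, *Fzd4* and *Dkk2* was not tested.

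Among the receptors, *Fzd1* rose on the LID in both genotypes. It measured 109, 93.8, 80.8 and 78.1 CPM in the WT(ND) mice, 88.5, 80.5, 82.7 and 61.6 in the *Glis3*-Pax8Cre(ND) mice, 175, 178, 187 and 203 in the WT(LID) mice and 173, 169.6, 202 and 195 in the *Glis3*-Pax8Cre(LID) mice. Genotypes overlapped on each diet, and diets did not overlap in either genotype. The rise was 1.04 (SE 0.12, adjusted p = 8.99e-06) in WT and 1.24 (SE 0.12, adjusted p = 8.51e-06) in *Glis3*-Pax8Cre, a difference between the 2 responses of 0.20 (SE 0.17, adjusted p = 0.492). With it the share of *Fzd1* in the CPM per kb of the 10 Frizzled genes went from 19.3% ± 2.52 to 34.6% ± 2.28 in WT and from 18.7% ± 2.19 to 32.5% ± 1.81 in *Glis3*-Pax8Cre. *Fzd6* and *Fzd7*, whose levels were called in no comparison, held 32.1% ± 2.78 and 29.9% ± 3.11 in the WT(ND) mice.

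*Fzd4*, a receptor known from the retinal vessels, differed between genotypes on the LID. It measured 28.1, 35.6, 35.4 and 51.3 CPM in the WT(ND) mice, 40.3, 48.2, 41.9 and 40.8 in the *Glis3*-Pax8Cre(ND) mice, 49.3, 60.8, 59.0 and 65.8 in the WT(LID) mice and 35.2, 23.9, 36.1 and 34.8 in the *Glis3*-Pax8Cre(LID) mice. *Glis3*-Pax8Cre(LID) lay below WT(LID) without overlap (-0.85, SE 0.16, adjusted p = 0.00101), while the ND difference was 0.19 (adjusted p = 0.447). It rose on the LID in WT by 0.64 (SE 0.16, adjusted p = 0.00526), with overlap of the 2 groups through WT(ND) replicate 4.

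*Fzd5*, a receptor of canonical signalling in epithelia, measured 47.8, 46.9, 48.0 and 44.4 CPM in the WT(ND) mice, 48.1, 53.6, 57.9 and 34.2 in the *Glis3*-Pax8Cre(ND) mice, 47.6, 51.2, 52.4 and 38.7 in the WT(LID) mice and 68.4, 68.1, 90.4 and 70.0 in the *Glis3*-Pax8Cre(LID) mice. As with *Wnt5a*, every *Glis3*-Pax8Cre(LID) mouse lay above all the others, with log2 fold changes of 0.64 (SE 0.14, adjusted p = 0.00285) against WT(LID) and 0.61 (SE 0.14, adjusted p = 0.00588) against *Glis3*-Pax8Cre(ND). *Fzd8* measured 17.5, 14.9, 18.5 and 19.9 CPM in the WT(ND) mice, 13.5, 19.3, 16.1 and 9.51 in the *Glis3*-Pax8Cre(ND) mice, 9.40, 10.9, 11.4 and 10.2 in the WT(LID) mice and 10.1, 11.5, 12.0 and 10.3 in the *Glis3*-Pax8Cre(LID) mice. It fell on the LID in WT without overlap (-0.76, SE 0.17, adjusted p = 0.00173), and the difference in *Glis3*-Pax8Cre was -0.41 (SE 0.16, adjusted p = 0.0776). Library size alone called this second difference (-0.54, adjusted p = 0.0125). So did the fits without *Glis3*-Pax8Cre(ND) replicate 4 (-0.58, adjusted p = 0.00308) and without the 4 mice with thymocyte markers (-0.55, adjusted p = 0.0175). DESeq2 and RLE scaling did not.

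*Fzd3*, a receptor of the planar cell polarity branch, measured 15.7, 14.5, 13.5 and 14.1 CPM in the WT(ND) mice, 15.4, 19.1, 22.6 and 16.1 in the *Glis3*-Pax8Cre(ND) mice, 10.8, 15.998, 13.3 and 11.5 in the WT(LID) mice and 17.2, 15.7, 23.8 and 16.4 in the *Glis3*-Pax8Cre(LID) mice. The LID groups overlapped slightly and differed by 0.51 (SE 0.16, adjusted p = 0.0220). The call was lost without WT(LID) replicate 1 (adjusted p = 0.0723) or 4 (0.0671) or *Glis3*-Pax8Cre(LID) replicate 3 (0.0872). *Fzd9* had at most 0.337 CPM in a mouse and passed the threshold for a higher level in the *Glis3*-Pax8Cre mice on the LID (adjusted p = 0.0461), which held in 9 of 23 alternatives. *Fzd2* was at 11.3 to 22.7 CPM and *Fzd10* at 0.0124 to 1.02 CPM over the 16 mice.

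Among the secreted antagonists, *Dkk2*, which binds the co-receptors LRP5 and LRP6, had group means in the same order as *Wnt4*. It measured 7.17, 9.18, 7.50 and 7.70 CPM in the WT(ND) mice, 5.83, 7.12, 5.01 and 4.62 in the *Glis3*-Pax8Cre(ND) mice, 19.8, 21.1, 22.4 and 24.4 in the WT(LID) mice and 8.31, 8.56, 7.57 and 8.22 in the *Glis3*-Pax8Cre(LID) mice. WT(LID) lay above all other mice, and *Glis3*-Pax8Cre(LID) overlapped WT(ND). The LID raised it 2.78-fold in WT (log2 fold change 1.47, SE 0.13, adjusted p = 5.10e-07) and 1.44-fold in *Glis3*-Pax8Cre (0.53, SE 0.13, adjusted p = 0.00731), where the call was lost in a fit of only the 8 mice compared (adjusted p = 0.0567). *Glis3*-Pax8Cre was lower by -1.42 (SE 0.13, adjusted p = 1.09e-06) on the LID and by -0.48 (SE 0.13, adjusted p = 0.0163) on the ND. The ND call was lost in 6 of 26 alternatives, with library size alone and without WT(ND) replicate 2 among them.

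*Sfrp5*, which binds WNT5A among other ligands, measured 24.8, 20.6, 17.3 and 16.2 CPM in the WT(ND) mice, 11.5, 9.20, 12.4 and 4.83 in the *Glis3*-Pax8Cre(ND) mice, 32.6, 24.7, 27.1 and 37.3 in the WT(LID) mice and 4.26, 8.28, 8.69 and 5.38 in the *Glis3*-Pax8Cre(LID) mice. On each diet all *Glis3*-Pax8Cre mice lay below all WT mice, by -2.19 (SE 0.29, adjusted p = 4.33e-05) on the LID and by -1.06 (SE 0.28, adjusted p = 0.0156) on the ND. The ND call was lost without WT(ND) replicate 1 (adjusted p = 0.0545) and without the 4 mice with thymocyte markers (0.0770). The diet comparisons were not called (0.63 in WT, adjusted p = 0.0788, and -0.50 in *Glis3*-Pax8Cre, adjusted p = 0.196). Some alternatives called the rise in WT, among them DESeq2 (0.64, adjusted p = 0.0481) and a fit of only the 8 mice compared (0.63, adjusted p = 0.0121). RLE scaling and library size alone did not. The interaction was called with DESeq2 (-1.14, adjusted p = 0.02485) but not in the main fit.

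*Sfrp1*, another secreted protein that binds ligands, measured 14.7, 16.1, 15.1 and 15.3 CPM in the WT(ND) mice, 16.4, 20.9, 18.8 and 23.7 in the *Glis3*-Pax8Cre(ND) mice, 13.2, 15.4, 14.7 and 19.6 in the WT(LID) mice and 15.4, 11.7, 11.6 and 12.0 in the *Glis3*-Pax8Cre(LID) mice. It fell on the LID in *Glis3*-Pax8Cre mice without overlap (-0.66, SE 0.13, adjusted p = 0.00252), and the WT groups differed by 0.04 (adjusted p = 0.837). On the ND every *Glis3*-Pax8Cre mouse lay above every WT mouse, a 1.31-fold difference that was not called. DESeq2 (0.41, adjusted p = 0.0210) and RLE scaling (0.40, adjusted p = 0.0460) were among the alternatives that called it. The replicate block and a fit of only the 8 mice compared did not. *Sfrp4*, of the same family, measured 3.05, 4.61, 3.63 and 4.39 CPM in the WT(ND) mice, 4.58, 3.44, 2.92 and 2.76 in the *Glis3*-Pax8Cre(ND) mice, 11.0, 6.74, 4.10 and 14.7 in the WT(LID) mice and 7.77, 5.38, 5.22 and 4.96 in the *Glis3*-Pax8Cre(LID) mice. Its rise in WT was 1.22 (SE 0.31, adjusted p = 0.00506), although WT(LID) replicate 3 lay within the range of WT(ND). In *Glis3*-Pax8Cre the LID difference was 0.78 (SE 0.31, adjusted p = 0.0769), without overlap of the diets, and it was called in the fit of the 8 mice compared, with the replicate block (0.76, adjusted p = 0.0144) and without it (0.77, adjusted p = 0.0451).

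*Dkk3*, a divergent Dickkopf protein, measured 15.8, 14.9, 12.1 and 18.1 CPM in the WT(ND) mice, 11.7, 17.3, 16.7 and 10.4 in the *Glis3*-Pax8Cre(ND) mice, 16.7, 21.0, 19.1 and 25.6 in the WT(LID) mice and 15.1, 14.3, 14.4 and 9.12 in the *Glis3*-Pax8Cre(LID) mice. The LID groups did not overlap and differed by -0.64 (SE 0.20, adjusted p = 0.0226), a call lost in 4 of 26 alternatives, without WT(LID) replicate 4 (adjusted p = 0.0808) and without *Glis3*-Pax8Cre(LID) replicate 4 (0.0696) among them. *Wif1*, which binds WNT proteins, was at 0 to 0.0989 CPM in the WT(ND) mice, 0.0627 to 0.144 CPM in the *Glis3*-Pax8Cre(ND) mice, 0.209 to 0.480 CPM in the WT(LID) mice and 0.141 to 1.36 CPM in the *Glis3*-Pax8Cre(LID) mice. It was called higher on the LID in WT (adjusted p = 0.00471) and in *Glis3*-Pax8Cre (adjusted p = 0.0471), and the second call was lost in 15 of 23 alternatives, with the replicate number as a block (adjusted p = 0.138), with library size alone (0.0534) and without *Glis3*-Pax8Cre(LID) replicate 1 (0.343) among them. That mouse was the highest of its group in *Wif1*, *Sfrp1* and *Sfrp4*. It had 27.8 CPM of the airway marker *Scgb1a1* and 27.6 CPM of *Scgb3a2*, where no other mouse had over 2.20 CPM of either. Its levels of the airway markers *Krt5* and *Foxj1* were 10.1 and 1.06 CPM. *Krt5* was higher in *Glis3*-Pax8Cre(ND) replicate 4 (73.6 CPM) and WT(ND) replicate 4 (58.1 CPM), and *Foxj1* in every WT(LID) mouse (1.88 to 2.94 CPM). The part of airway cells in the values of *Wif1*, *Sfrp1* and *Sfrp4* was not tested. *Sfrp2*, at 8.45 to 14.5 CPM over the 16 mice, was called in no comparison.

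**Figure D3:**
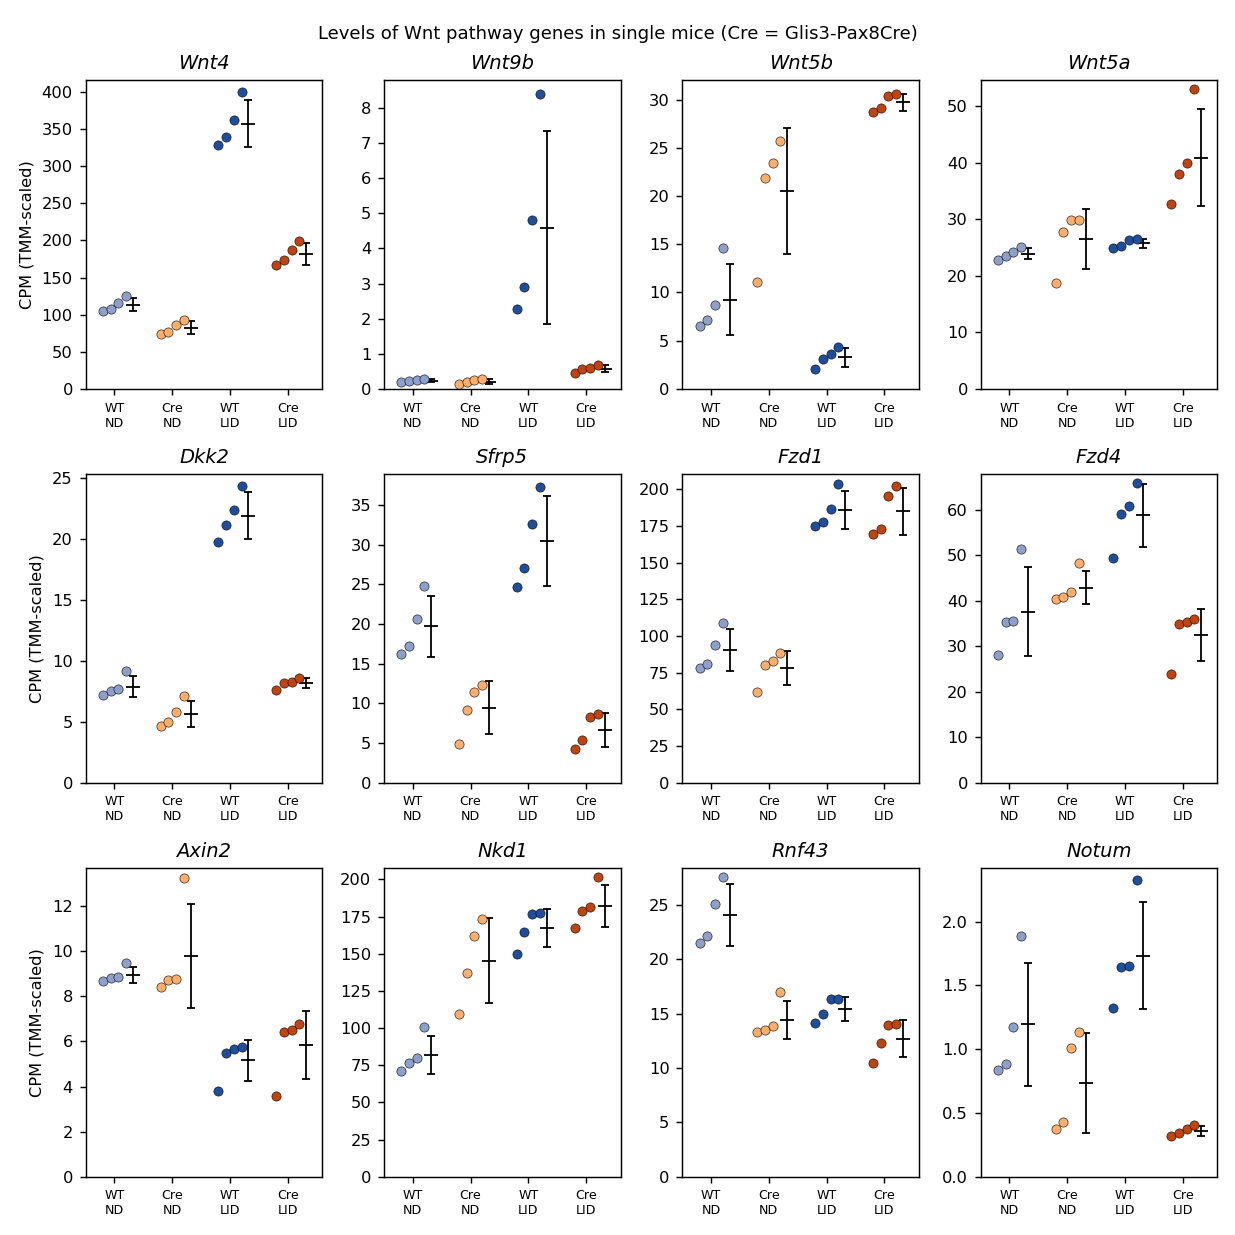
CPM (y axis, from 0, scaled by TMM) of 12 members in the 4 mice of each group (points), with the group mean and SD (bars to the right of the points). *Wnt4* and *Dkk2* are highest in WT(LID), *Wnt5b* is highest in *Glis3*-Pax8Cre(LID), and *Fzd1* separates the diets and not the genotypes.

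The transcription factors *Tcf7* and *Lef1*, partners of β-catenin that are also abundant in T cells, were dominated by single mice. *Tcf7* measured 46.5, 23.7, 5.62 and 6.91 CPM in the WT(ND) mice, 5.14, 4.41, 4.16 and 747 in the *Glis3*-Pax8Cre(ND) mice, 7.23, 5.19, 82.9 and 5.85 in the WT(LID) mice and 4.42, 3.97, 3.42 and 128 in the *Glis3*-Pax8Cre(LID) mice. *Lef1* measured 5.31, 3.70, 1.57 and 0.971 CPM in the WT(ND) mice, 2.07, 3.84, 3.21 and 75.2 in the *Glis3*-Pax8Cre(ND) mice, 1.41, 0.890, 9.35 and 1.12 in the WT(LID) mice and 3.17, 2.23, 2.54 and 12.7 in the *Glis3*-Pax8Cre(LID) mice. In each group the mouse with the highest *Tcf7* was also the one with the highest *Lef1* and the highest sum of 7 thymocyte markers.

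That sum was 114, 26.1, 3.74 and 2.53 CPM in the WT(ND) mice, 6.27, 7.64, 7.59 and 2092 CPM in the *Glis3*-Pax8Cre(ND) mice, 1.38, 1.51, 167 and 1.53 CPM in the WT(LID) mice and 5.07, 4.52, 5.52 and 247 CPM in the *Glis3*-Pax8Cre(LID) mice. Of the 7 markers, *Dntt*, *Ptcra*, *Rag1* and *Rag2* were at 0 in some mice and 0 were at 0 in all. The ND difference of *Tcf7* was 3.21 (SE 1.94, adjusted p = 0.268) with all mice and -1.41 (adjusted p = 0.0661) without the 4 mice whose sum exceeded 100 CPM, a choice made after the data had been seen. The part of thymocytes in these values was not tested. The untested ligand *Wnt8b* was also highest in *Glis3*-Pax8Cre(ND) replicate 4 (2.91 CPM) and *Glis3*-Pax8Cre(LID) replicate 4 (0.527 CPM), and at most 0.196 CPM in every other mouse.

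**Figure D4:**
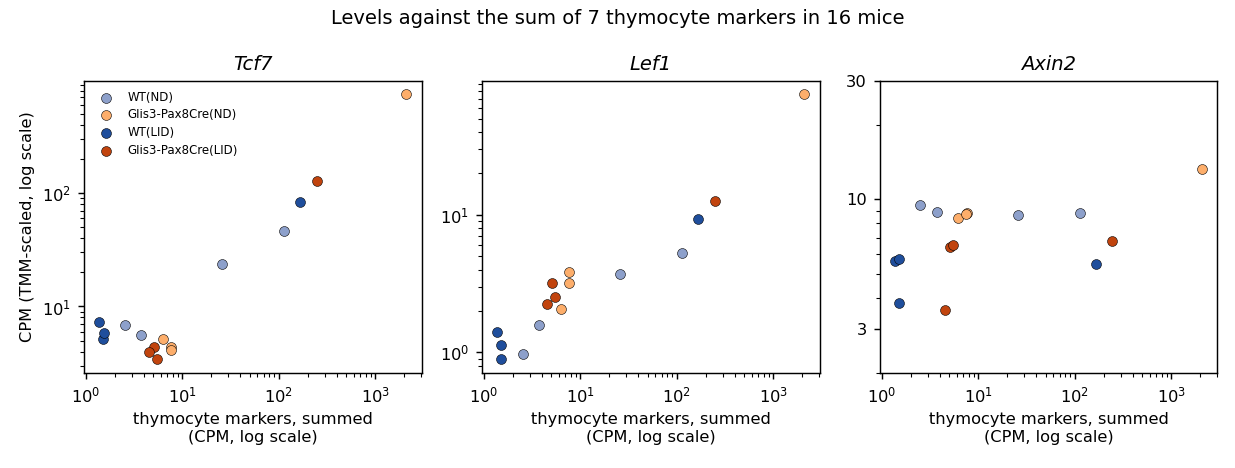
CPM of *Tcf7*, *Lef1* and *Axin2* (y axes, log scale, each with its own range) against the summed CPM of 7 thymocyte markers (x axes, log scale) in 16 mice, coloured by group. The 4 mice with a sum over 100 CPM hold the highest *Tcf7* and *Lef1* of their groups, and for *Axin2* this holds in both *Glis3*-Pax8Cre groups but in neither WT group.

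The feedback targets did not move as 1 group. *Axin2*, a β-catenin degradation scaffold widely used as a readout of canonical signalling, fell on the LID. It measured 8.80, 8.68, 8.86 and 9.48 CPM in the WT(ND) mice, 8.41, 8.78, 8.71 and 13.2 in the *Glis3*-Pax8Cre(ND) mice, 5.66, 3.82, 5.48 and 5.74 in the WT(LID) mice and 6.44, 3.58, 6.52 and 6.77 in the *Glis3*-Pax8Cre(LID) mice. Diets did not overlap in either genotype and genotypes overlapped on each diet. The fall on the log2 scale was -0.79 (SE 0.20, adjusted p = 0.00489) in WT and -0.75 (SE 0.20, adjusted p = 0.0128) in *Glis3*-Pax8Cre, and the genotype differences were 0.13 (SE 0.20, adjusted p = 0.687) on the ND and 0.17 (SE 0.20, adjusted p = 0.566) on the LID. The call in *Glis3*-Pax8Cre was lost in a fit of only the 8 mice compared (adjusted p = 0.0575). The sums of parathyroid and C-cell markers described with *Wnt7b* separated the diets in both genotypes as *Axin2* did. Of the C-cell markers in *Glis3*-Pax8Cre, only *Chga* did so.

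*Nkd1*, an inhibitor that binds Dishevelled, measured 79.7, 76.5, 101 and 71.1 CPM in the WT(ND) mice, 162, 137, 173 and 109 in the *Glis3*-Pax8Cre(ND) mice, 177, 178, 149.9 and 165 in the WT(LID) mice and 178, 181, 201 and 167 in the *Glis3*-Pax8Cre(LID) mice. WT(ND) lay below all other groups. On the ND it was higher in *Glis3*-Pax8Cre than in WT by 0.83 (SE 0.13, adjusted p = 0.000776), and by 0.96 (adjusted p = 0.000144) without WT(ND) replicate 3. The LID raised it in WT by 1.03 (SE 0.13, adjusted p = 2.56e-05), and the difference between the genotypes on the LID was 0.12 (adjusted p = 0.534). In *Glis3*-Pax8Cre the LID difference was 0.33 (SE 0.13, adjusted p = 0.0854), and a fit that blocked on replicate number called it, at 0.34 (SE 0.11, adjusted p = 0.0472), though not with the block among the 8 mice compared. *Axin2* and *Nkd1* thus changed in opposite directions on the LID in WT.

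*Rnf43*, a ubiquitin ligase that removes Frizzled receptors from the cell surface, measured 25.1, 22.1, 21.5 and 27.6 CPM in the WT(ND) mice, 13.9, 17.0, 13.3 and 13.5 in the *Glis3*-Pax8Cre(ND) mice, 16.4, 14.1, 15.0 and 16.4 in the WT(LID) mice and 14.1, 10.5, 12.3 and 14.0 in the *Glis3*-Pax8Cre(LID) mice. Here WT(ND) lay above all other groups. It was lower in *Glis3*-Pax8Cre(ND) by -0.74 (SE 0.12, adjusted p = 0.000650) and in WT(LID) by -0.64 (SE 0.12, adjusted p = 0.000445). *Znrf3*, its paralogue, was at 20.9 to 31.0 CPM over the 16 mice, and its log2 fold changes lay between -0.10 and 0.09 with no call.

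*Notum*, a secreted enzyme that removes the lipid from WNT proteins, measured 0.883, 0.836, 1.17 and 1.89 CPM in the WT(ND) mice, 0.376, 1.01, 1.14 and 0.428 in the *Glis3*-Pax8Cre(ND) mice, 1.64, 1.32, 1.65 and 2.32 in the WT(LID) mice and 0.376, 0.342, 0.408 and 0.316 in the *Glis3*-Pax8Cre(LID) mice. The LID groups did not overlap and differed by -2.26 (SE 0.36, adjusted p = 0.000200). Its fall on the LID in *Glis3*-Pax8Cre (-1.08, SE 0.36, adjusted p = 0.0363) was lost with the replicate number as a block (-1.05, adjusted p = 0.0551) and without any 1 of 6 of the *Glis3*-Pax8Cre mice. *Lgr5*, a receptor for R-spondins and a stem cell marker in the gut, was at 0.301 to 0.330 CPM in the WT(LID) mice and at 0.0325 to 0.246 CPM in the *Glis3*-Pax8Cre(LID) mice, a difference of -1.32 (SE 0.41, adjusted p = 0.0234) that was lost in 4 of 25 alternatives.

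Whether the response to the LID differed between genotypes was tested by the interaction, the LID response in *Glis3*-Pax8Cre minus that in WT. It was called for 8 members, 1 higher (all genes 4.43%) and 7 lower (all genes 7.41%), or 21.6% of the members against 11.8% of all genes. Under library size alone it was called for 2 higher and 5 lower, where 37.5% of all genes called were higher. At the thresholds of the study, 1 was higher and 2 were lower (all genes 0.74% and 2.89%). *Wnt5b* was the higher one, at 2.03 (SE 0.40, adjusted p = 0.00458), and at 1.70 (adjusted p = 0.00579) without WT(ND) replicate 3. The lower ones were *Wnt9b* at -2.80 (adjusted p = 0.00263), *Notum* at -1.61 (adjusted p = 0.0429), *Fzd4* at -1.04 (adjusted p = 0.00841), *Dkk2* at -0.94 (adjusted p = 0.00298), *Nkd1* at -0.70 (adjusted p = 0.0237), *Sfrp1* at -0.70 (adjusted p = 0.0248) and *Wnt4* at -0.52 (adjusted p = 0.0197). For *Wnt9b*, *Dkk2* and *Wnt4* both genotypes rose on the LID and *Glis3*-Pax8Cre rose less, while for *Fzd4* the fitted values were 0.64 in WT and -0.40 in *Glis3*-Pax8Cre. The *Notum* call held in 8 of 23 alternatives, and that of *Wnt4* did not hold under library size alone (adjusted p = 0.0638). That of *Nkd1* was lost without WT(ND) replicate 2 (adjusted p = 0.0512) or *Glis3*-Pax8Cre(LID) replicate 4 (0.0510), and that of *Sfrp1* in 4 of 24 alternatives. The 5 endothelial markers were all called lower in the interaction, with a median of -1.57, and their part in it was not tested.

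**Figure D5:**
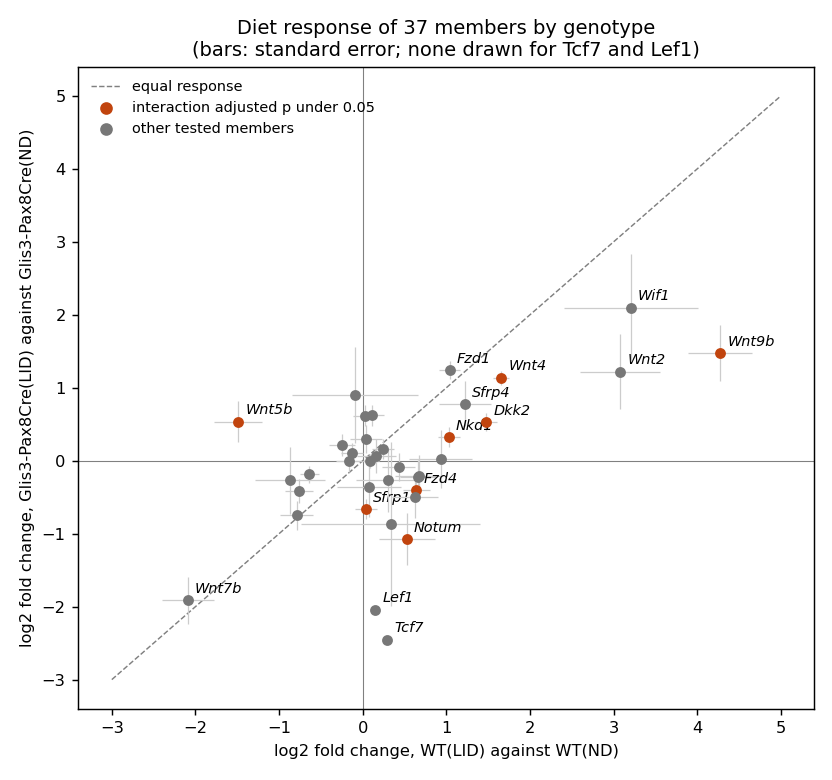
Log2 fold change on the LID in *Glis3*-Pax8Cre mice (y axis) against that in WT mice (x axis) for the 37 tested members, with standard errors (not drawn for *Tcf7* and *Lef1*), the line of equal response dashed and the 8 members called in the interaction in red. *Fzd1* and *Wnt7b* lie near the line, *Wnt9b* lies at 4.27 and 1.47, and *Wnt5b* lies above the line at -1.49 and 0.53.

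Other genes of the pathway, a list of 58 co-receptors, R-spondins, Dishevelled proteins, destruction complex members and further regulators, had 56 tested genes. In *Glis3*-Pax8Cre(LID) against WT(LID), 11 were higher (19.6%, against 14.9% of all genes) and 8 lower (14.3%, against 15.4%), with a median of -0.08. Those past a fold change of 2 were the R-spondin *Rspo2* (2.58), the R-spondin receptor *Lgr6* (2.07), the LRP antagonists *Sost* (1.79) and *Sostdc1* (1.53), the DKK co-receptor *Kremen2* (1.55), and, lower, the planar polarity cadherin *Celsr1* (-1.16) and the cyclin *Ccnd1* (-1.10). On the ND 4 were higher and 4 lower (7.14% each, against 10.3% and 9.25% of all genes), with *Kremen2* at 1.83, *Celsr3* at -1.01 and *Rspo4* at -1.33. In WT the LID raised 17 (30.4%, against 20.9% of all genes) and lowered 15 (26.8%, against 20.8%), with *Kremen2* (1.93), *Celsr1* (1.62), *Ccnd1* (1.52), *Ror1* (1.20), *Nkd2* (1.14) and *Lrp5* (1.02) among the higher ones and *Rspo3* (-2.19), *Sost* (-1.63), *Lgr6* (-1.48), *Rspo4* (-1.40) and *Pygo1* (-1.05) among the lower ones. In *Glis3*-Pax8Cre it raised 8 (14.3%, against 13.1% of all genes) and lowered 6 (10.7%, against 12.3%), with *Rspo2* at 1.72, *Kremen2* at 1.65 and *Pygo1* at -1.01. The interaction was called for 5, 2 higher (3.57%, against 4.43% of all genes) and 3 lower (5.36%, against 7.41%), *Lgr6* (2.20), *Rspo3* (1.45), *Celsr1* (-1.14), *Ror1* (-1.09) and *Ccnd1* (-1.05). The R-spondins named here and *Sost* had low levels. Their group means were 0.0356 to 0.2985 CPM for *Rspo2*, 0.2997 to 1.38 CPM for *Rspo3*, 0.2235 to 0.703 CPM for *Rspo4* and 0.0851 to 0.546 CPM for *Sost*.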

How the data were processed

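Thyroid RNA of 16 mice had been sequenced as read pairs on NextSeq or NovaSeq instruments, and which library ran on which is not given in the sources used here. The authors kept pairs with an average base quality above 20, aligned them by STAR 2.5 to the mm10 genome and took counts per RefSeq gene from featureCounts 1.5.0-p1, without regard to strand. The deposited table holds these raw counts per gene, which were used as they stand. Groups and replicate numbers came from the sample labels.

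Genes were filtered with filterByExpr, scaled by TMM and fitted with edgeR 4.0.16 (R 4.3.3), with 1 mean per group over 16 mice and a robust quasi-likelihood test. The 4 comparisons and their interaction were adjusted by Benjamini-Hochberg over all tested genes. Standard errors are of the log2 fold change, CPM in single mice carries no prior count, and CPM per kb used the union of exons in GENCODE vM21 basic. Intervals and floors cover counting error only.

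The alternatives were DESeq2 1.42.0, RLE scaling, library size alone, other filters, *Tg* left out, only the 8 mice compared, the replicate number as a block, each mouse left out in turn, the thresholds of the study (0.01 and a fold of 2) and, chosen after the data had been seen, leaving out the 4 mice with thymocyte markers. Numbers of alternatives given for the call of a member leave out the thresholds of the study. Same-numbered mice of *Glis3*-Pax8Cre(ND) and *Glis3*-Pax8Cre(LID) deviated together (correlation 0.212 to 0.648 in 4 pairs), while those of WT(ND) and WT(LID) had -0.168 to 0.14, so the blocked value is printed beside the diet comparison in *Glis3*-Pax8Cre where it ended or added a call. No 2 libraries of a group agreed within sampling noise in any of 24 pairs.

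Values in every mouse are given for members with a call in at least 1 comparison and a mean of at least 1 CPM, and for *Tcf7* and *Lef1*. Other pathway genes are named where they were called and changed more than 2-fold. The follicular marker list is not reported here in full. The members and lists were chosen with earlier results of these data known.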

Additional observations from a re-analysis of the deposited data

Results flagged for a closer look

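Single mice stood apart from the other 3 of their group, by the gap to the nearest mouse relative to the range, in 15 of 92 groups of 4, where chance flags about 1 in 20. *Axin2* was high in *Glis3*-Pax8Cre(ND) replicate 4 (13.2 CPM) and low in WT(LID) replicate 2 (3.82 CPM) and *Glis3*-Pax8Cre(LID) replicate 2 (3.58 CPM). *Lef1* was high in *Glis3*-Pax8Cre(ND) replicate 4 (75.2 CPM), WT(LID) replicate 3 (9.35 CPM) and *Glis3*-Pax8Cre(LID) replicate 4 (12.7 CPM), and *Tcf7* in the same 3 mice (747, 82.9 and 128 CPM). Among the *Glis3*-Pax8Cre(LID) mice, replicate 4 was low in *Dkk3* (9.12 CPM), replicate 2 low in *Fzd4* (23.9 CPM), replicate 3 high in *Fzd5* (90.4 CPM), and replicate 1 high in *Sfrp1* (15.4 CPM) and *Sfrp4* (7.77 CPM). *Rnf43* was high in *Glis3*-Pax8Cre(ND) replicate 2 (17.0 CPM).

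The response to the LID differed between genotypes by the interaction test for 8 members. Its log2 value, *Glis3*-Pax8Cre minus WT, was 2.03 for *Wnt5b*, -2.80 for *Wnt9b*, -1.61 for *Notum*, -1.04 for *Fzd4*, -0.94 for *Dkk2*, -0.70 for *Nkd1*, -0.70 for *Sfrp1* and -0.52 for *Wnt4*.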

How the results depend on the processing

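The thresholds of the study are a stricter cut on the main fit and are counted apart below. Of 58 calls of members, 39 were kept in every alternative fit that could be run and 19 were lost in at least 1. Among these calls and the ND values of *Tcf7* and *Lef1*, directions turned only for *Tcf7*, to -0.76 with the replicate block, -0.81 with the block among the 8 mice, -2.18 without *Glis3*-Pax8Cre(ND) replicate 4 (range -2.18 to 3.99 over the mice left out) and -1.41 without the 4 mice with thymocyte markers; its main value was not called. The thresholds of the study called 1 member higher and 7 lower between genotypes on the LID, and 0 and 0 on the ND. They called 8 and 2 for the diet in WT, 2 and 1 for the diet in *Glis3*-Pax8Cre and 1 and 2 in the interaction. On the LID, 7 were lower with at least 10 counts in every mouse, a filter that tests fewer genes. On the ND, library size alone gave 4 higher and 3 lower, where 74.4% of all genes called were higher. The 8 mice alone gave 1 and 3 there, the same with the replicate block 1 and 3, and 3 were lower without the 4 mice with thymocyte markers. In *Glis3*-Pax8Cre, 2 were lower on the LID among its 8 mice. In the interaction, 2 were higher with library size alone, with DESeq2 and with the replicate block. The causes were not tested.

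With each mouse left out in turn, the counts higher and lower were 3 to 5 and 9 to 13 between genotypes on the LID (3 without WT(LID) replicate 1 or 4), 2 to 3 and 3 to 5 on the ND (3 lower without WT(ND) replicate 1 or 2 or *Glis3*-Pax8Cre(ND) replicate 3), 9 to 12 and 5 to 6 for the diet in WT, 6 to 7 and 3 to 6 for the diet in *Glis3*-Pax8Cre, and 1 to 2 and 4 to 8 in the interaction (2 without *Glis3*-Pax8Cre(ND) replicate 2 or 3 or *Glis3*-Pax8Cre(LID) replicate 2, 4 without *Glis3*-Pax8Cre(LID) replicate 4). The block also ended the call of *Fzd9* between genotypes on the LID and of *Notum* in the interaction, where it added *Fzd5* (0.62, adjusted p = 0.0181). Depth limits *Wif1*, *Fzd9*, *Lgr5*, *Rspo2*, *Rspo4*, *Sost* and the untested ligands, which lie near the level that 3 counts allow in the shallower libraries.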
